A study of Mus musculus with 12 samples.

Results

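The genes described here are 37 genes of the choroid plexus epithelium, read from the raw counts of mouse hippocampal RNA. They were chosen as a list of symbols, with earlier results of these data known. Of the 37 genes, 36 had a row among the 24421 genes of the table, and the long noncoding RNA 2900040C04Rik was not analysed here. Mfrp, a membrane protein gene that overlaps C1qtnf5 in RefSeq, had 0 counts in 12 of 12 libraries, which allows up to 3 counts in each. That limit holds for counted reads only. How reads in the overlap were counted is not given in the sources used here. Krt8, a keratin, had 0 to 6 counts per library and did not pass the filter on low counts. The other 34 genes were tested among 13065 genes of the whole table.

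The study profiled the hippocampus of mice 2 months of age that had all been given BrdU, a label of newly made DNA. The 12 libraries, called biological replicates in the labels, fell into 4 genotypes of 3, namely wild type (WT), 5xFAD, p75NTRko and their cross, 5xFAD/p75NTRko. In 5xFAD mice a Thy1 promoter drives mutant human transgenes in neurons as a model of Alzheimer's disease. The p75NTRko label stands for loss of the p75 neurotrophin receptor, encoded by Ngfr, and the labels do not describe the allele. Ngfr was higher in the 6 libraries with the receptor label, at 5.94 to 10.5 CPM (counts scaled to library size), than in the other 6, at 0.166 to 1.94 CPM. The receptor genotypes are therefore given only as the libraries were labelled.

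The choroid plexus is a fold of vascular tissue covered by a secretory epithelium that hangs in the brain ventricles, and in the lateral ventricle it lies against the hippocampus. Its epithelial cells make cerebrospinal fluid by moving ions and water. They also secrete carrier proteins and growth factors, and their tight junctions form the barrier between blood and fluid. Transthyretin, encoded by Ttr, carries thyroid hormone and retinol-binding protein and is among the most abundant transcripts of these cells.

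Sequencing depth was 4316739 to 6683613 counts per library, so that 3 counts, taken as the limit of measurement, were worth 0.445 to 0.689 CPM. Between 22 and 35 of the listed genes lay above that limit in a library. Their summed share of all counts ranged from 0.0296% to 0.790%. Hippocampal excitatory neuron markers summed to 2248 to 3321 CPM, and 10 of 10 were measured. Xist, transcribed from the inactive X chromosome, split the libraries as well: 7 (WT, 5xFAD/p75NTRko-labelled and p75NTRko-labelled replicate 1) had 359 to 439 CPM and 5 had 1.53 to 3.57 CPM. Ttr spanned 49.4 to 6113 CPM in the former and 142 to 4369.9 CPM in the latter.

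Ttr differed 124-fold between the highest and the lowest library. In WT it was 1945, 2682 and 4865 CPM in replicates 1, 2 and 3 (mean 3164 ± 1519, SD, n = 3). In 5xFAD it was 1498, 1009 and 142 CPM (883 ± 687, SD, n = 3). The 5xFAD values lay below all WT values. In p75NTRko-labelled libraries it was 6113, 3742 and 4369.9 CPM (4742 ± 1228, SD, n = 3), and in 5xFAD/p75NTRko-labelled libraries 6018, 49.4 and 209 CPM (2092 ± 3401, SD, n = 3). Replicate 1 of the cross thus stood among the highest of the 12 libraries while its replicate 2 was the lowest. Libraries of that 1 genotype covered 6.92 of the 6.94 log2 units that all libraries covered. In bulk RNA, fewer cells of a type and less RNA per cell cannot be told apart.

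**Figure D1:**
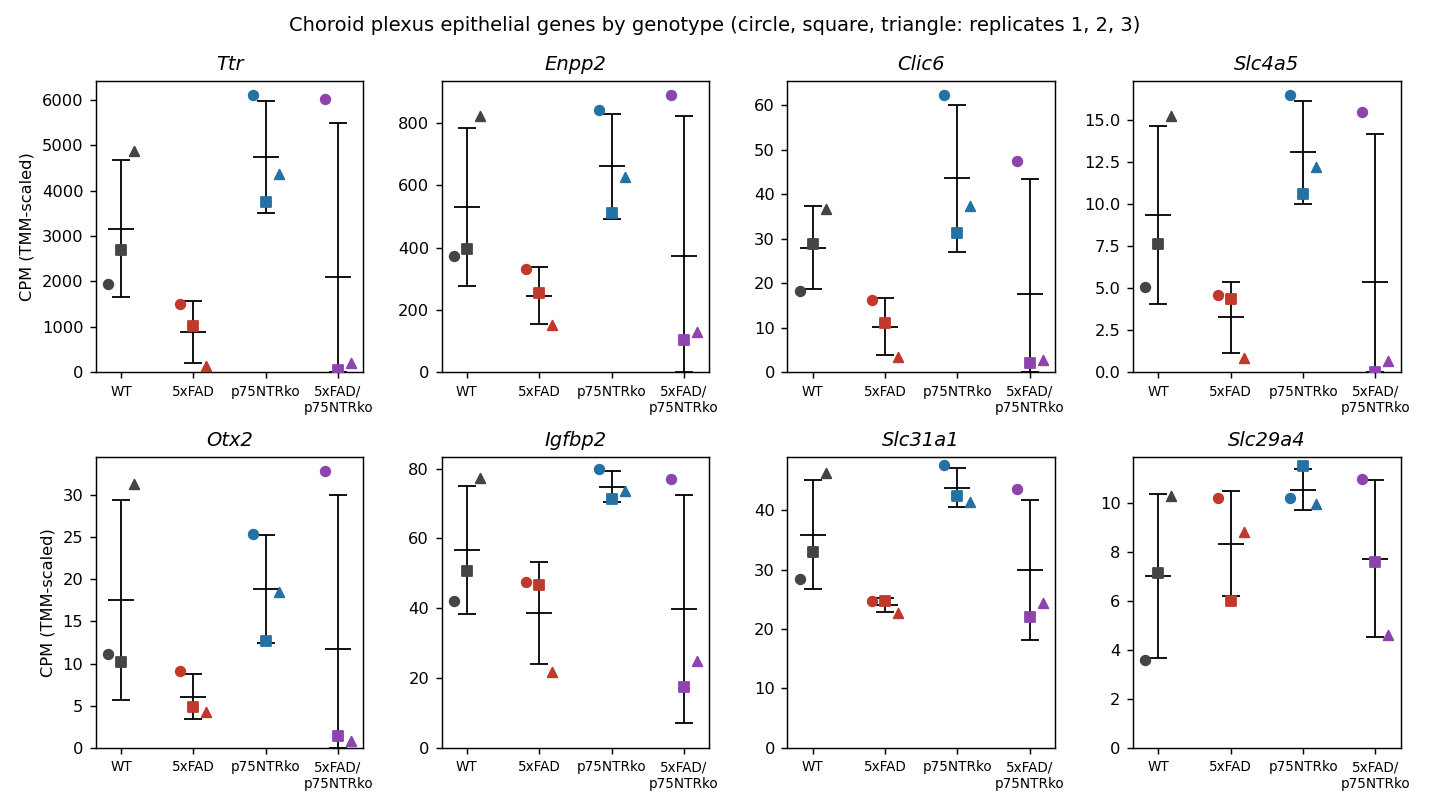
Level in CPM of 8 genes by genotype, with 1 point per replicate, a line at the mean and bars of 1 SD (n = 3, clipped at 0). In 5xFAD/p75NTRko-labelled libraries Ttr ran from 49.4 to 6018 CPM, whereas Slc29a4 lay between 4.58 and 10.97 CPM.

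Whether each listed gene followed Ttr was asked by fitting its log2 level against the log2 CPM of Ttr over the 12 libraries with edgeR's quasi-likelihood test. A slope of 1 is a change by the same factor as Ttr, and a slope of 0 is no change with it. Of 33 genes besides Ttr, 31 rose with Ttr (adjusted p under 0.05, Benjamini-Hochberg over 13064 genes) and 33 of 33 slopes were positive. Of all genes, 0.796% rose with Ttr and 0.0153% fell. The median slope was 0.52 for the listed genes and -0.00 for all genes. The 95% interval of the slope held 1 for 6 genes, lay wholly under 1 for 25 genes that were called, and the other 2 genes, Slc29a4 and Tcn2, were not called. Hence most of the genes moved with Ttr but by a smaller factor. Of the 18 genes with a mean of at least 50 counts, 18 were called, against 0.525% of all genes under that filter. Slc29a4 and Tcn2, with 569 and 313 counts over the 12 libraries, did not pass that filter and so were not among the 18.

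**Figure D2:**
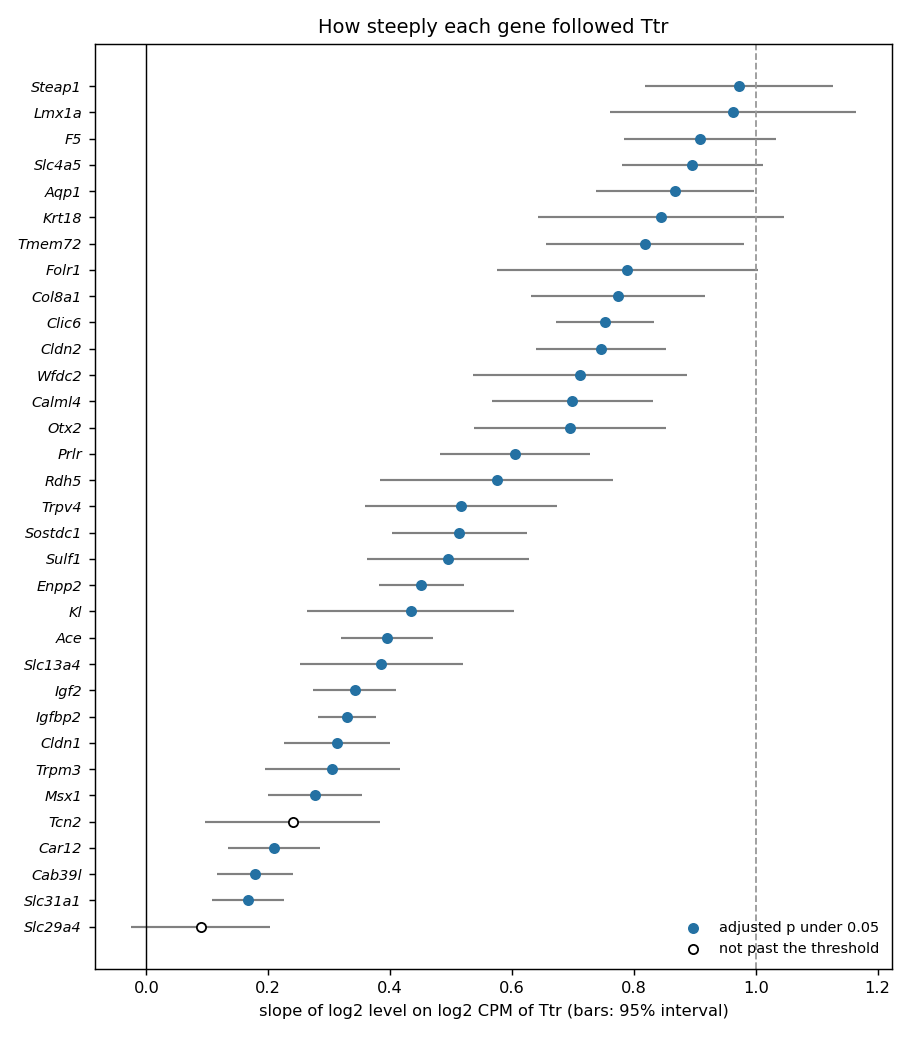
Slope of each gene's log2 level on the log2 CPM of Ttr over 12 libraries, with the 95% interval, where filled points passed adjusted p under 0.05 and open points did not. Slopes ran from 0.09 for Slc29a4 to 0.97 for Steap1, and the lines mark slopes of 0 and 1.

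To set differences between genotypes aside, the slope was also fitted with a mean for each genotype. Within genotypes 27 of 33 genes were called, against 0.521% of all genes, with a median slope of 0.51. This fit leaned on the cross, where Ttr ran from 49.4 to 6018 CPM, and then on 5xFAD, from 142 to 1498 CPM. The span was narrower in WT, 1945 to 4865 CPM, and in p75NTRko-labelled libraries, 3742 to 6113 CPM. The 6 that were not called within genotypes were Cab39l, Rdh5, Slc31a1, Car12, Slc29a4 and Tcn2. In the 9 libraries with at least 1000 CPM of Ttr, a choice made after the data were seen, 16 of 33 were called, against 0.199% of all genes. Slopes of 12 of the 33 moved there by over 1.5 times: that of Enpp2 was 0.69, of Folr1 1.34, of Kl 0.82, of Slc31a1 0.40 and of Car12 0.38, against 0.45, 0.79, 0.43, 0.17 and 0.21 over all libraries. Among the 12, only Igf2 and Tcn2 became shallower, at 0.21 and 0.03 against 0.34 and 0.24.

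Among secreted proteins and carriers, 9 of 10 genes besides Ttr rose with Ttr, with a median slope of 0.47. Enpp2 encodes autotaxin, the enzyme that makes the lipid signal lysophosphatidic acid. It was 373, 397 and 822 CPM in WT, 332, 255 and 150.4 in 5xFAD, 844, 511 and 627 in p75NTRko-labelled libraries and 891, 103 and 129.97 in 5xFAD/p75NTRko-labelled libraries. Its highest and lowest libraries were those of Ttr, or the next to them, but its span was narrower. The slope was 0.45 (95% interval 0.38 to 0.52, adjusted p 3.51e-07 by edgeR). In replicate 2 of the cross, Enpp2 kept 11.5% of its level in replicate 1 (counting interval 10.5 to 12.6), while Ttr kept 0.821% (0.72 to 0.93).

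F5, coagulation factor V, came closest to Ttr among the secreted proteins. It was 7.16, 8.59 and 24.4 CPM in WT, 7.12, 2.63 and 1.47 in 5xFAD, 24.2, 13.3 and 18.4 in libraries labelled p75NTRko, and 20.6, 0.195 and 1.15 in those labelled 5xFAD/p75NTRko. The 5xFAD libraries lay below the WT libraries, but barely, with 42 counts in 5xFAD replicate 1 and 48 in WT replicate 1. The 0.195 CPM in replicate 2 of the cross was 1 count. The slope was 0.91 (0.78 to 1.03). Col8a1, a basement membrane collagen, had a slope of 0.77 and Wfdc2, a secreted protein with protease-inhibitor domains, 0.71. Col8a1 had 76 counts in replicate 1 of the cross and 0 in replicate 2, which makes it at least 21.6-fold lower there, computed against 3 counts in that library.

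Igf2, a fetal growth factor kept in adult choroid plexus and meninges, and Igfbp2, which binds it, were called with shallow slopes. Igfbp2 was 41.9, 50.7 and 77.4 CPM in WT, 47.5, 46.7 and 21.8 in 5xFAD, 79.8, 71.2 and 73.6 in libraries labelled p75NTRko, and 77.1, 17.3 and 24.7 in those labelled 5xFAD/p75NTRko. The same 3 libraries were lowest as for Ttr, but none was near 0. The slope of Igfbp2 was 0.33 (0.28 to 0.38) and that of Igf2 0.34 (0.27 to 0.41). With Folr1 in place of Ttr, Igf2 did not pass (adjusted p 0.0636 by edgeR). Replicate 2 of the cross kept 22.5% of the Igfbp2 level of replicate 1 and 19.7% of its Igf2 level.

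Sostdc1, an antagonist of BMP and Wnt signals, had a slope of 0.51, Sulf1, which edits heparan sulfate outside the cell, 0.49, and Kl, the FGF23 co-receptor Klotho that is also shed into the fluid, 0.43. Kl was 12.2, 8.43 and 45.1 CPM in WT, 25.4, 12 and 7.35 in 5xFAD, 56.3, 26.2 and 42.6 in libraries labelled p75NTRko, and 49.5, 9.93 and 6.06 in those labelled 5xFAD/p75NTRko. WT replicate 2, with 2682 CPM of Ttr, had 8.43 CPM of Kl, within the 6.06 to 9.93 CPM of the 3 libraries poorest in Ttr. With the replicate number as a block its adjusted p was 0.0905. Tcn2, transcobalamin, which carries vitamin B12, lay between 0.584 and 7.12 CPM and had a slope of 0.24 (0.10 to 0.38, adjusted p 0.194).

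All 5 tested receptors and surface enzymes rose with Ttr, with a median slope of 0.79. Steap1, of a family of membrane metalloreductases, had the steepest slope of all listed genes, 0.97 (0.82 to 1.13). It was 4.18, 5.995 and 14.2 CPM in WT, 5.26, 2.06 and 0.210 in 5xFAD, 24.2, 11.7 and 14.4 in libraries labelled p75NTRko, and 20.1, 0.584 and 1.15 in those labelled 5xFAD/p75NTRko. Its highest library was that of Ttr, p75NTRko-labelled replicate 1, and its lowest, 5xFAD replicate 3, was the next to lowest for Ttr. That lowest value was 1 count and replicate 2 of the cross had 3 counts, so the order of these libraries was not measurable.

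Folr1, the receptor that carries folate into the fluid, had a slope of 0.79 (0.58 to 1.003), with values from 0.630 to 14.3 CPM. Tmem72, a membrane protein, had a slope of 0.82 and Prlr, the prolactin receptor, 0.60. Tmem72 had 74 counts in replicate 1 of the cross and 0 in replicate 2, at least 21.1-fold lower against 3 counts. Ace, which makes angiotensin II, was the shallowest of this group at 0.39 (0.32 to 0.47), with 2.10 CPM in its lowest library and 13.6 in its highest.

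Among genes of ion, water and solute transport, 8 of 9 rose with Ttr, but their slopes were the most spread, from 0.09 to 0.90, with a median of 0.39. Slc4a5, a sodium bicarbonate cotransporter of the apical membrane, was 5.07, 7.62 and 15.2 CPM in WT, 4.58, 4.31 and 0.840 in 5xFAD, 16.5, 10.6 and 12.2 in libraries labelled p75NTRko, and 15.5, 0 and 0.655 in those labelled 5xFAD/p75NTRko. It had 93 counts in replicate 1 of the cross and 0 in replicate 2, at least 26.5-fold lower against 3 counts. The slope was 0.90 (0.78 to 1.01). Aqp1, the water channel of the same membrane, had a slope of 0.87 (0.74 to 0.997) and 0.630 to 27.6 CPM.

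Clic6, a chloride channel family member, had the smallest adjusted p of the listed genes, 9.87e-09 by edgeR, with a slope of 0.75 (0.67 to 0.83). It was 18.2, 28.8 and 36.8 CPM in WT, 16.3, 11.1 and 3.36 in 5xFAD, 62.4, 31.2 and 37.3 in libraries labelled p75NTRko, and 47.6, 2.14 and 2.78 in those labelled 5xFAD/p75NTRko. The 5xFAD libraries lay below the WT libraries, and the same 3 libraries were lowest as for Ttr. Replicate 2 of the cross kept 4.50% (2.22 to 8.18) of the Clic6 level of replicate 1.

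The cation channels Trpv4 and Trpm3 had slopes of 0.52 and 0.31, and Slc13a4, a sulfate transporter, 0.39. Slc13a4 did not pass without 5xFAD/p75NTRko-labelled replicate 2, with an adjusted p of 0.0521 by edgeR. Car12, a membrane carbonic anhydrase, and Slc31a1, the copper importer, had slopes of 0.21 (0.13 to 0.29) and 0.17 (0.11 to 0.23). Slc31a1 was 28.5, 33.1 and 46.2 CPM in WT, 24.8, 24.8 and 22.7 in 5xFAD, 47.6, 42.5 and 41.4 in libraries labelled p75NTRko, and 43.6, 22.0 and 24.4 in those labelled 5xFAD/p75NTRko. The 5xFAD values lay below those of WT and p75NTRko-labelled libraries, yet the lowest library still had 22.0 CPM. Slc31a1 overlaps Fkbp15 in RefSeq, and whether strand was used in counting is not given in the sources used here.

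Slc29a4 encodes a transporter of monoamines in the plasma membrane. It was 3.58, 7.13 and 10.3 CPM in WT, 10.2, 6.0 and 8.82 in 5xFAD, 10.2, 11.5 and 9.95 in libraries labelled p75NTRko, and 10.97, 7.59 and 4.58 in those labelled 5xFAD/p75NTRko. The ranges of all 4 genotypes overlapped, and the lowest value was in a WT library with 1945 CPM of Ttr. The slope was 0.09 (-0.03 to 0.20, adjusted p 0.786). Replicate 2 of the cross kept 69.2% of the level of replicate 1, with a counting interval of 45.3 to 104.

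**Figure D3:**
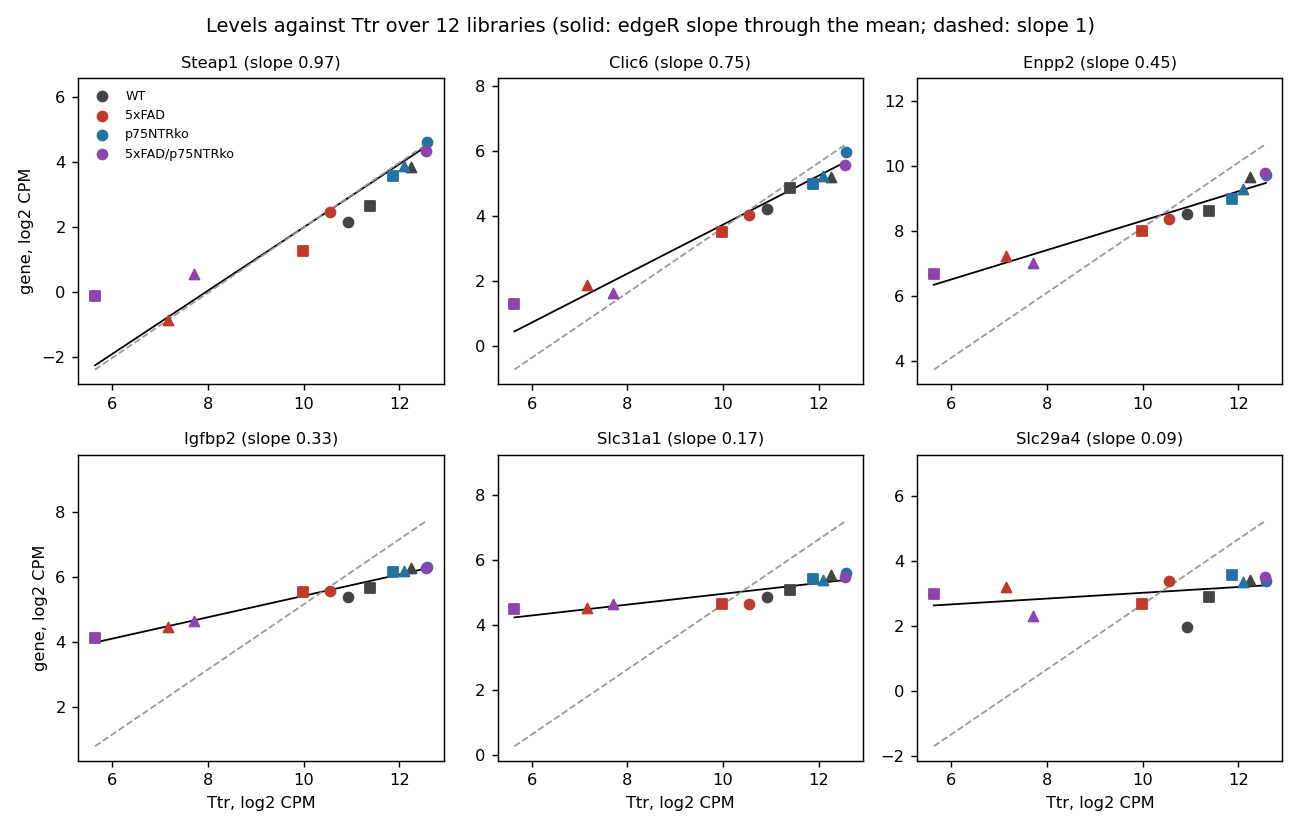
Log2 CPM of 6 genes against log2 CPM of Ttr (prior count 2), with 1 point per library, the fitted slope as a solid line and a slope of 1 as a dashed line through the mean. Steap1 ran along the dashed line with a slope of 0.97, whereas Igfbp2 (0.33), Slc31a1 (0.17) and Slc29a4 (0.09) ran flatter.

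The 3 transcription factors were called, each with a different slope. Lmx1a, a LIM homeodomain factor of the roof plate from which the choroid plexus arises, had a slope of 0.96 (0.76 to 1.16) at 0 to 6.46 CPM. Otx2, a homeodomain factor that choroid plexus cells make and also secrete, had a slope of 0.70 (0.54 to 0.85). Otx2 was 11.2, 10.2 and 31.3 CPM in WT, 9.15, 4.88 and 4.201 in 5xFAD, 25.4, 12.6 and 18.6 in libraries labelled p75NTRko, and 32.9, 1.36 and 0.818 in those labelled 5xFAD/p75NTRko. Its low libraries were those of Ttr and 5xFAD lay below WT without overlap. Msx1, a further homeodomain factor, had a slope of 0.28 (0.20 to 0.35) and kept 23.0% in replicate 2 of the cross.

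Tight junction and keratin genes were called in 3 of 3 cases. Krt18, with 0 to 5.92 CPM, had a slope of 0.84 (0.64 to 1.05). Cldn2, which forms cation and water pores, had a slope of 0.75 (0.64 to 0.85), and Cldn1, a sealing claudin, 0.31 (0.23 to 0.40). Cldn2 was at 2.10, 2.53 and 1.47 CPM in the 3 libraries poorest in Ttr, where Cldn1 had 3.99, 4.48 and 7.86 CPM. Without the 2 libraries farthest from the median of Ttr, Cldn1 did not pass (adjusted p 0.0566 by edgeR). Of the other intracellular genes, Calml4, calmodulin-like, had a slope of 0.70, Rdh5, a retinol dehydrogenase that overlaps Bloc1s1 in RefSeq, 0.57, and Cab39l, of the LKB1 kinase complex, 0.18 (0.12 to 0.24). Rdh5 did not pass without the 2 farthest libraries (adjusted p 0.121 by edgeR).

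Because the slope is relative, the level left where Ttr was least was also read on the CPM scale, with a straight line of each gene's CPM on that of Ttr, added after the data were seen. The interval of the line's level at a Ttr of 0 lay above 0 for 15 of 33 genes and held 0 for 18. The highest was Enpp2 with 113 CPM (63.4 to 162), followed by Igfbp2 with 25.8 (18.4 to 33.2), Slc31a1 with 21.7 (18.9 to 24.4), Car12 with 21.1, Igf2 with 18.1 and Cab39l with 17.7. Msx1 was at 8.55 and Slc29a4 at 6.42 CPM. By contrast F5 was at 0.0481 CPM (-2.23 to 2.32) and Lmx1a at 0.0484 (-0.773 to 0.870). Which cells held the level that remained was not tested.

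Promoter windows were read for the listed genes because they moved together and include a homeodomain factor, Otx2. RefSeq (GRCm38.p6) gave windows for 30 of the 37 genes, 43 in all, of the 250 bases before a transcript start. Of these, 24 overlap the span of their own gene, since its transcripts start at several places. The windows printed are 1 of the 4 of Otx2, that of F5, whose slope interval held 1, and that of Slc29a4, which was not called and whose window lies within the gene. They are among the windows that hold 0 bases of exons annotated in GENCODE, and capitals mark the motif TAATTA.
Otx2 chr14:48667645-48667894, minus strand: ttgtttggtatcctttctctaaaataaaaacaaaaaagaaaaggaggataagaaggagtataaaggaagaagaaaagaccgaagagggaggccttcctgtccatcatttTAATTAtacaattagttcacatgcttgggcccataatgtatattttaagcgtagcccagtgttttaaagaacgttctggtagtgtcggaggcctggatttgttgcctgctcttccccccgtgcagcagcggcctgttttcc
F5 chr1:164151585-164151834, plus strand: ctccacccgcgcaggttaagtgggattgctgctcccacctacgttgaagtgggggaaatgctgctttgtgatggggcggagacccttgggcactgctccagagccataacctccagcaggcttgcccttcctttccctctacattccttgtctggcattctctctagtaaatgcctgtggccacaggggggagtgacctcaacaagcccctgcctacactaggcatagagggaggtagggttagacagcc
Slc29a4 chr5:142701851-142702100, plus strand: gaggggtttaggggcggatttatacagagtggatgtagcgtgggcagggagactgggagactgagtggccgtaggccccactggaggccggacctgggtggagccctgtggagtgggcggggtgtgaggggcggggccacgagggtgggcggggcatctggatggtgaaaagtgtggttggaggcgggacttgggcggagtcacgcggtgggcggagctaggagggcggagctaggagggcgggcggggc

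TAATTA, the core that many homeodomains bind, stood once in the Otx2 window printed, at position -141 from the transcript start, and in neither of the other windows printed. Of the other 3 windows of Otx2, 1 held 3 TAATTA and 1 TAATCC, and 2 held neither motif. Searched on both strands, with no match of one motif overlapping one of the other, it was in 3 of 43 windows (6.98%) and in 4.84% of 32851 windows of all genes. TAATCC, the core preferred by Otx factors, was in 3 of 43 windows (6.98%) and in 6.25% of all windows. Such matches describe letters and not bound sites.

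Levels of the listed genes were then compared between genotypes by edgeR's quasi-likelihood test with a mean per genotype, at an adjusted p under 0.05 over 13065 genes. In 5xFAD against WT, 33 of 34 genes had a negative fitted log2 difference, with a median of -0.996, against -0.00 for all genes. Ttr was lower by a log2 difference of -1.84 (SE 1.14, adjusted p 0.475). None of the 34 was called (background 0.0536%), 4 had an unadjusted p under 0.05 (background 13.9%), namely Slc31a1, Sulf1, Lmx1a and Slc13a4, and DESeq2 called 0. In 13 of 34 genes, 38.2%, all 5xFAD libraries lay below all WT libraries, which held for 9.02% of all genes. These were Ttr, Enpp2, Clic6, Slc4a5, Otx2, F5, Col8a1, Slc31a1, Sulf1, Lmx1a, Ace, Slc13a4 and Krt18. Some gaps were narrow, with nearest 5xFAD and WT values of 7.12 and 7.16 CPM for F5 and 1.53 and 1.64 CPM for Krt18. Since most listed genes rose with Ttr over the same libraries, these counts and shares are not of independent genes. The genotypes and the Xist classes coincide in this comparison, and in the cross against 5xFAD, and cannot be told apart. Summed thalamus and habenula markers were apart as well, at 634 to 904 CPM in WT and 439 to 520 in 5xFAD. Hippocampal neuron markers summed to 2248 to 2486 CPM in WT and 2743 to 3321 in 5xFAD. Endothelial markers summed to 287 to 312 CPM in WT and 272 to 281 in 5xFAD. Sums of the lists of further choroid plexus, fluid and ion transport, and retinoid and thyroid hormone genes, described below, were lower in 5xFAD without overlap too. Sums of the other marker lists, among them those of oligodendrocytes and astrocytes, overlapped. The part of these differences in the levels of the listed genes was not tested.

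In p75NTRko-labelled libraries against WT, 32 of 34 genes had a positive log2 difference, with a median of 0.50 and a Ttr difference of 0.58 (SE 1.10, adjusted p 0.863). Here 0 were called (background 0%), 0 had an unadjusted p under 0.05 (background 11.5%) and DESeq2 called 0. In 5xFAD/p75NTRko-labelled against 5xFAD libraries, 30 of 34 differences were positive, with a median of 0.52 and a Ttr difference of 1.24 (SE 1.12, adjusted p 0.988). The counts were 0 called (background 0.0383%), 0 at an unadjusted p under 0.05 (background 5.08%) and 0 by DESeq2. These signs rested on replicate 1 of the cross, without which 34 of 34 differences were negative, with a median of -1.35 and a Ttr difference of -2.76.

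In 5xFAD/p75NTRko-labelled against p75NTRko-labelled libraries, 34 of 34 genes had a negative log2 difference, with a median of -0.92 and a Ttr difference of -1.18 (SE 1.11, adjusted p 0.917). Again 0 were called (background 0%), and DESeq2 called 0. An unadjusted p under 0.05 (background 6.60%) was reached by 5, Igfbp2, Cab39l, Slc31a1, Car12 and Krt18. Replicate 1 of the cross decided this count: without it 13 of 34 were called lower, against 0.234% of all genes, and Ttr differed by -5.19 (SE 0.887, adjusted p 0.0400). Beside Ttr these were Enpp2, Clic6, Slc4a5, Otx2, Aqp1, Cldn2, Sostdc1, F5, Tmem72, Calml4, Igfbp2 and Car12. Replicate 1 was singled out after the data were seen. Only replicates 2 and 3 of the cross then remained, with 49.4 and 209 CPM of Ttr, so these calls depend on that choice.

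In 5xFAD/p75NTRko-labelled libraries against WT, 31 of 34 genes had a negative log2 difference, with a median of -0.53 and a Ttr difference of -0.60 (SE 1.10, adjusted p 0.883). None was called (background 0%), 0 had an unadjusted p under 0.05 (background 9.95%) and DESeq2 called 0. Without replicate 1 of the cross the median was -2.26 and the Ttr difference -4.61, and without its replicate 2 the Ttr difference was -0.02. The interaction of the transgene with the receptor label was positive in 17 genes and negative in 17, with a Ttr term of 0.66 (SE 1.56, adjusted p 0.911). Of these, 0 were called (background 0.0383%), 0 had an unadjusted p under 0.05 (background 9.32%) and DESeq2 called 0. Its sign too rested on replicate 1 of the cross, without which it was negative in 33 genes and the Ttr term was -3.35; without 5xFAD replicate 1 that term was 1.28.

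Replicate 1 of the cross also entered the shared estimate of the spread. Leaving it out was a choice made after the data were seen. Without it, 18, 2, 18, 33, 33 and 22 of 34 genes had an unadjusted p under 0.05 in the 6 comparisons in the order above, with backgrounds of 14.0%, 11.5%, 7.60%, 7.99%, 10% and 11.3%. By the adjusted p, 0 genes were called in the comparisons other than the cross against p75NTRko-labelled libraries, with backgrounds of 0.0604%, 0.0831%, 0.0529%, 0.0302% and 0.0227%. The comparisons share libraries and are not independent of each other. The listed genes moved together over the libraries, so the counts of genes within a comparison are not of independent genes either.

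With the log2 CPM of Ttr as a further term, the median absolute difference of the other 33 genes was smaller in each of the 6 comparisons, though not every gene's was. Because 31 of the 33 had risen with Ttr in these same libraries, smaller medians were largely fixed in advance and are given as a description. The median absolute log2 difference went from 0.99 to 0.17 in 5xFAD against WT, from 0.50 to 0.25 in p75NTRko-labelled against WT and from 0.54 to 0.22 in the cross against 5xFAD. It went from 0.91 to 0.15 in the cross against p75NTRko-labelled libraries, from 0.50 to 0.17 in the cross against WT and from 0.32 to 0.29 for the interaction. Over all genes these medians were 0.12 to 0.22 with the term. The absolute difference was larger with the term for 4, 5, 8, 0, 11 and 16 of 33 genes in that order. In the cross against WT, Folr1 went from 0.38 to 1.19, and in the cross against 5xFAD Tmem72 went from 0.22 to -1.07, genes chosen after their values were seen. As without the term, 0 of 33 were called in this fit in each of the 6 comparisons, with backgrounds, in the order above, of 0.00765%, 0.199%, 0.00765%, 0.0459%, 0% and 0.0842%. An unadjusted p under 0.05 was reached by 1, 2, 3, 0, 1 and 1 genes in that order (backgrounds 12.3%, 11.7%, 5.01%, 5.02%, 6.54% and 8.81%).

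**Figure D4:**
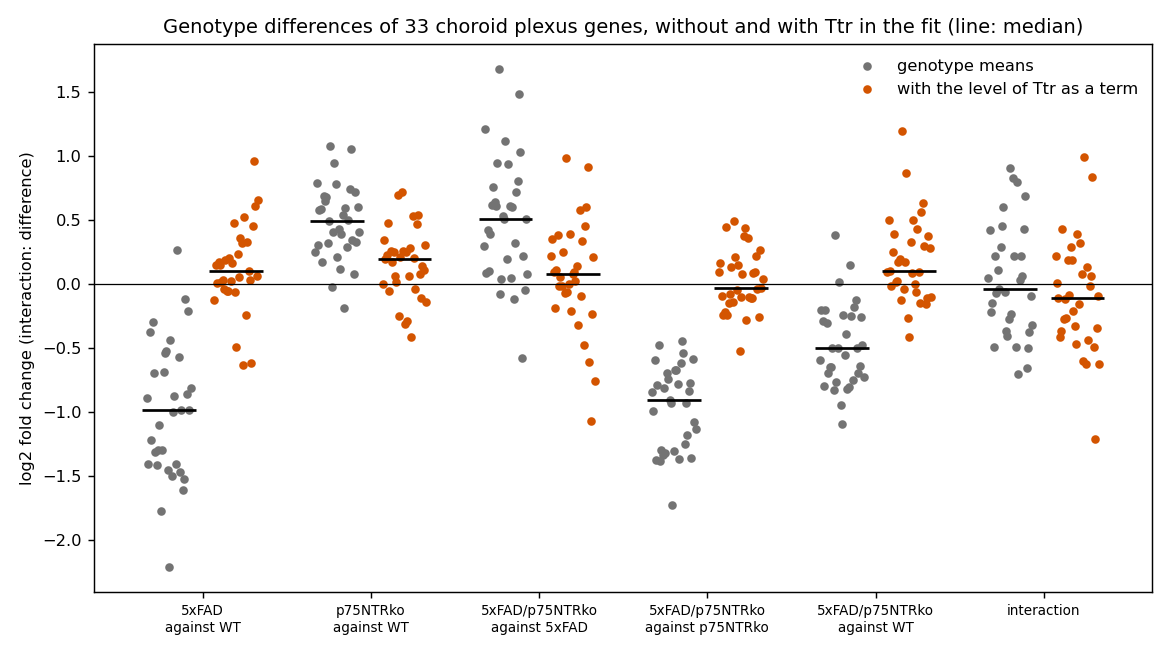
Log2 difference of 33 genes in 6 comparisons, with 1 point per gene, grey without and orange with the log2 CPM of Ttr as a term, and a line at the median. The median absolute difference in 5xFAD against WT went from 0.99 to 0.17. Most of these genes rose with Ttr in the same libraries, so smaller differences were largely fixed in advance.

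Other genes known from the choroid plexus moved with Ttr too. The lists used here and below were chosen with earlier results of these data known, so they give no independent test. Of 15 tested from a further list of 20, 12 rose, with a median slope of 0.36, led by the augurin gene 1500015O10Rik (slope 0.82), the potassium channel Kcnj13 (0.83), the potassium channel subunit Kcne2 (0.96) and the phospholipase Pla2g5 (0.52). Of 20 fluid and ion transport genes that other brain cells also express, 4 rose (Slc4a2, Slc12a2, Fxyd1 and Abcc4) and 7 had an unadjusted p under 0.05, with a median slope of 0.03. The chloride bicarbonate exchanger Slc4a2 had a slope of 0.24 and the sodium potassium chloride cotransporter Slc12a2 one of 0.10. Of 10 other genes of the insulin-like growth factor system 0 rose (1 at an unadjusted p under 0.05), with a median slope of 0.01, and of 12 retinoid and thyroid hormone genes 1 rose, the thyroxine carrier Slco1c1 (0.10), and 5 had an unadjusted p under 0.05.

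Markers of neighbouring cells were read beside these values. Of 11 ependymal genes 3 rose with Ttr (Rsph1, Dynlrb2 and Mia), with a median slope of 0.26 and a summed level of 26.4 to 104 CPM. Of 12 fibroblast genes of meninges and stroma 1 rose (Pcolce), with a median slope of 0.19 and a summed level of 108 to 466 CPM. At an unadjusted p under 0.05, which 7.70% of all genes reached, 9 of the ependymal and 6 of the fibroblast genes were past it. By the adjusted p of edgeR, 0 rose of 10 endothelial, 7 mural, 5 border macrophage, 10 oligodendrocyte, 10 astrocyte and 10 hippocampal neuron genes, of which 2, 1, 0, 6, 1 and 0 had an unadjusted p under 0.05. Of 13 thalamus and habenula genes 0 rose and 4 had an unadjusted p under 0.05, while 3, Tcf7l2, Tnnt1 and Rora, were called within genotypes, and the list summed to 1003 CPM in replicate 1 of the cross and 389 in replicate 2. Of 5 blood genes, 4 were at 0 in all libraries. The part of these tissues in the results on the listed genes was not tested.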

How the data were processed

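Per the labels, QuantSeq 3′ mRNA libraries were made from Trizol-extracted RNA with an integrity number above 7. The authors deposited raw counts by gene symbol with a column for each library. The submitters' processing notes name FastQC, HISAT2, SAMtools, HTSeq and edgeR and the build mm10; annotation and strand setting are not given in the sources used here. A count of 3′ ends carries no gene-length term. The 5 summary lines, 61.5% to 67.8% of the table's reads, were left out, and 0 columns belonged to other samples.

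edgeR 4.0.16 in R 4.3.3 was run over all 12 libraries: filterByExpr by genotype, TMM (factors 0.975 to 1.03), quasi-likelihood fits across all genes and Benjamini-Hochberg adjustment, with DESeq2 1.42.0 as an alternative. The fits were a mean per genotype, a slope on the log2 CPM of Ttr (prior count 2), and both; Ttr itself was left out of fits that hold it. Standard errors come from the estimate and its F statistic. Other alternatives were RLE size factors, other filters, only the genotypes compared, a replicate block, Folr1 in place of Ttr, and leaving out libraries. Intervals on counts are exact, at 95%, and cover counting error only, since amplified reads are not independent molecules. Every pair of libraries differed by more than counting noise (lowest chi-square per degree of freedom 3.09). The procedure was tested on simulated data.

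The members and lists were chosen with earlier results of these data known. All listed genes could be named; outside them, of each list the called genes (at most 4 by smallest p), the 12 genes with the smallest p and a positive slope on Ttr, the 5 with a negative slope, and the 5 nearest to Ttr by correlation. P-values measure the spread between these libraries.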

Additional observations from a re-analysis of the deposited data

How the results depend on the processing

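The count of 31 genes that rose with Ttr was 32 with DESeq2, 31 with no filter on low counts, 29 with Folr1 in place of Ttr, 28 without the 2 libraries farthest from the median of Ttr (5xFAD/p75NTRko-labelled replicate 2 and 5xFAD replicate 3) and 30 to 31 when each library was left out in turn. Of all genes, 1.18% were called in either direction with DESeq2, 0.580% with no filter, 0.628% with Folr1 and 0.567% without the 2 farthest libraries. The count was 18 of 18 tested with a mean of at least 50 counts, where fewer genes were tested and Slc29a4 and Tcn2 were filtered out. It was 16 in the libraries with at least 1000 CPM of Ttr, where fewer libraries were used, a choice made after seeing the data. The slopes of single genes changed sign in none of the settings run in which they were called; 26 of them, counted over settings, lost their call and 1 gained it (Tcn2 with DESeq2, slope 0.24, adjusted p 0.0255). Leaving out each library in turn gave 0 to 13 called genes in 5xFAD/p75NTRko-labelled against p75NTRko-labelled libraries, and 0 in the other comparisons of genotypes. The numbers of replicates do not pair the libraries: same-numbered libraries deviated together with correlations of -0.42 to 0.14, and 2 of 18 pairs were over 0.1. With the replicate number as a block, 30 genes rose with Ttr, with 0.620% of all genes called, and 0 listed genes were called between genotypes. Depth limits the genes under 3 counts in the libraries poorest in Ttr, whose levels there were not measurable.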

Other observations

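Among genes outside the list, the 12 with the smallest p and a positive slope on Ttr in edgeR's test were 1500015O10Rik, Kcnj13, Prr32, Col8a2, Cgnl1, Kcne2, Sema3b, Pla2g5, Col9a3, Wdr86, Slc4a2 and Lbp, with slopes from 0.23 (Cgnl1, a junction protein) to 1.05 (Wdr86). Col8a2, the partner chain of Col8a1, had a slope of 0.95 and Prr32 one of 0.71. The collagen gene Col9a3 had a slope of 0.39 and Sema3b, a secreted semaphorin, 0.40. Lbp, which binds bacterial lipopolysaccharide, had a slope of 0.48.

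Only 2 of 13064 genes fell as Ttr rose, and by little. Mvk, mevalonate kinase of cholesterol synthesis, had a slope of -0.13 (adjusted p 0.0278 by edgeR) and 6.38 to 13.04 CPM. Taf9, a subunit of the general transcription machinery, had a slope of -0.07 (adjusted p 0.0498) and 53.6 to 81.2 CPM. Within genotypes neither passed, with adjusted p of 0.333 and 0.580. The next by p, Foxp1, Armcx5 and Cpeb1, did not pass.

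The 5 genes outside the list whose log2 CPM was most like that of Ttr over the 12 libraries, among those with a mean of at least 5 CPM, were Kcnj13 (Pearson's r 0.99), 1500015O10Rik (0.98), Sema3b (0.97), Pla2g5 (0.96) and Prr32 (0.96). The libraries share their genotypes, so these values describe the 12 libraries only. Kcnj13 went from 23.9 CPM in replicate 1 of the 5xFAD/p75NTRko-labelled libraries to 0.195 CPM, 1 count, in replicate 2.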
